A study of Homo sapiens with 24 samples.

Results

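The members described here are 36 subunits of mitochondrial complex I that are encoded in the nucleus. They are the rows of the 4 deposited count tables whose Ensembl identifier has one of the 36 symbols, of 61860 identifiers in each table, and every symbol was found in every table; subunits with other symbols were not analysed here. The rule uses the symbols and no measured value. RNA-seq had been run on OE33, a human cell line from an esophageal adenocarcinoma (EAC), in 4 experiments with 3 treated and 3 control libraries each, 24 libraries in all. In the diet experiment, male BALB/c nude mice, bought at an age of 4 weeks, had been kept for 8 weeks on food high in fat (HFD) or on a normal diet (ND) before OE33 cells were injected under the skin, and the tumors were taken after 21 days. In the TRIM15 experiment, cultured OE33 cells carried an HA-tagged TRIM15 plasmid (HA-TRIM15) or the empty vector (EV) for 48 h. In the YY2 experiment they carried a short hairpin RNA against YY2 (shYY2) or a control hairpin (shControl) for 72 h, and in the FOXRED1 experiment a hairpin against FOXRED1 (shFOXRED1) or a shControl group of its own, also for 72 h. No control library was shared between experiments. Nude mice lack T cells, all 4 experiments used this 1 cell line, and the sources used here do not say which hairpin sequence went into the libraries or whether the 3 libraries of a group came from separate cultures. P-values therefore measure the spread between these libraries, which may be technical.

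Complex I (NADH:ubiquinone oxidoreductase) is the entry point of the respiratory chain. It takes electrons from NADH, passes them along a line of iron-sulfur clusters to ubiquinone, and uses the energy to pump protons across the inner mitochondrial membrane. The N module at the tip of its matrix arm oxidises NADH, the Q module below it reduces ubiquinone, and the P arm in the membrane pumps protons; the P arm is divided into a proximal and a distal part. The conserved core subunits carry the flavin and the iron-sulfur clusters or shape the quinone site, and the accessory subunits surround and stabilise them. Subunits are joined with the help of assembly factors, of which FOXRED1 is one. By general knowledge of the assembled enzyme, 10 members were placed in the N module, 5 in the Q module, 9 in the proximal and 12 in the distal P arm. NDUFV1, NDUFV2, NDUFS1, NDUFS3, NDUFS7 and NDUFS8 are core subunits, and the other 30 members are accessory.

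The libraries held between 14299807 and 45994561 counts, of which between 14957 and 71744 fell on the 36 members. Values are given in CPM, a gene's counts relative to the total of its library, scaled between libraries by the TMM method. TRIM15 was counted 111, 130 and 181 times with HA-TRIM15 and 0 times in every EV library, at least 64.5-fold higher against a floor of 3 counts per library. YY2 fell with shYY2 by 1.82 on the log2 scale (edgeR, adjusted p = 1.30e-06), and FOXRED1 fell with shFOXRED1 from 17.4 ± 0.286 to 10.1 ± 1.19 CPM (SD, n = 3; edgeR, adjusted p = 4.06e-05). In the xenografts TRIM15 was counted 14, 12 and 24 times with HFD and 1, 0 and 0 times with ND. The shFOXRED1 library of replicate 3 stood apart from the other 2 of its group, with a chi-square per gene of 7.94 and 6.90 against 2.16 between those 2, where the pairs within the other groups gave 1.47 to 4.98. All 7 epithelial markers examined were detected. They summed to between 16387 and 16927 CPM with shYY2 and between 11837 and 12616 CPM with shControl, with 4 called higher and 3 lower, and to between 13747 and 13946 CPM with HFD and between 12918 and 13218 CPM with ND, with 3 higher and 2 lower, while the groups overlapped in the other experiments. The summed level of the endothelial, adipocyte and skeletal muscle lists stayed at or below 1.46 CPM in every library, and that of the leukocyte and macrophage list at or below 10.8 CPM. Fibroblast markers summed to between 23.7 and 27.0 CPM with HFD and between 30.5 and 33.5 CPM with ND, to between 42.4 and 43.9 CPM with shYY2 and between 10.5 and 11.2 CPM with shControl, and to between 38.4 and 41.8 CPM with shFOXRED1 and between 24.2 and 25.5 CPM with its shControl. In all of these, 5 of the 6 fibroblast markers had a mean under 1 CPM. The part of these shifts in the results was not tested. The 7 complex I subunits encoded in the mitochondrial genome were listed at 0 counts in all 24 libraries.

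The 36 mRNAs differed widely in level per kilobase. Per kilobase of exon (RPKM, over the exons that GENCODE 29 joins for each gene), the mean of the 4 control groups was highest for NDUFS5, a small subunit on the intermembrane-space side of the proximal P arm, at 111, followed by the distal P arm subunits NDUFB10 at 65.0 and NDUFB7 at 63.6. The ranges over the control groups of NDUFB10, 55.95 to 74.95, and NDUFB7, 41.6 to 76.8, overlapped, so that these neighbours did not differ beyond the spread between groups. Core subunits lay in the upper, middle and lower parts of the order, with NDUFV1, the NADH-oxidising flavoprotein, at 31.9, NDUFS8 at 18.7, NDUFS1 at 10.9, NDUFS3 at 10.1, NDUFS7 at 1.70 and NDUFV2, an iron-sulfur subunit next to NDUFV1, at 0.880. At the low end, NDUFA11, NDUFA9, NDUFA13 and NDUFV2 lay between 0.880 and 1.45 RPKM, NDUFA7 at 0.247 and NDUFA3 at 0.190. NDUFA6 had between 0 and 2 counts in every library. The joined length holds every annotated exon, whether or not these cells use it. It was 10391 bases for NDUFA9, 7533 for NDUFS7 and 4839 for NDUFA11, against 548 for NDUFS5 and 531 for NDUFB7. NDUFA6 and NDUFA7, at 1416 and 1413 bases, were low without such a length. The part of the joined length in this order was not tested.

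Beside these low levels stands a further feature of the annotation. Each of the 7 members with the lowest level per kilobase shared exon bases with another GENCODE 29 gene, on the same strand for 5 of them, against 15 of the other 29 members on either strand and 8 on the same strand. Most of these same-strand neighbours held few counts. Over the 24 libraries those of NDUFA11, NDUFA9, NDUFV2 and NDUFA7 had at most 13, whereas those of NDUFA13 had 379 (AC011448.1) and 2641 (YJEFN3), where NDUFA13 itself had 1360. Among the other members, the neighbour of NDUFB2 had 13024 (ADCK2), where NDUFB2 had 11936. That of NDUFS3 had 2050 (PTPMT1), where NDUFS3 had 17479. How the reads of overlapping genes were assigned, and whether strand was used, is not settled by the sources used here, and the part of overlap in these levels was not tested. Changes of the lowest members, and of other members with overlapping genes such as NDUFB2 and NDUFS3, are therefore given as changes of the deposited counts. NDUFA5 and NDUFB4 each have 12 annotated pseudogenes, to which the same doubt applies.

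**Figure D1:**
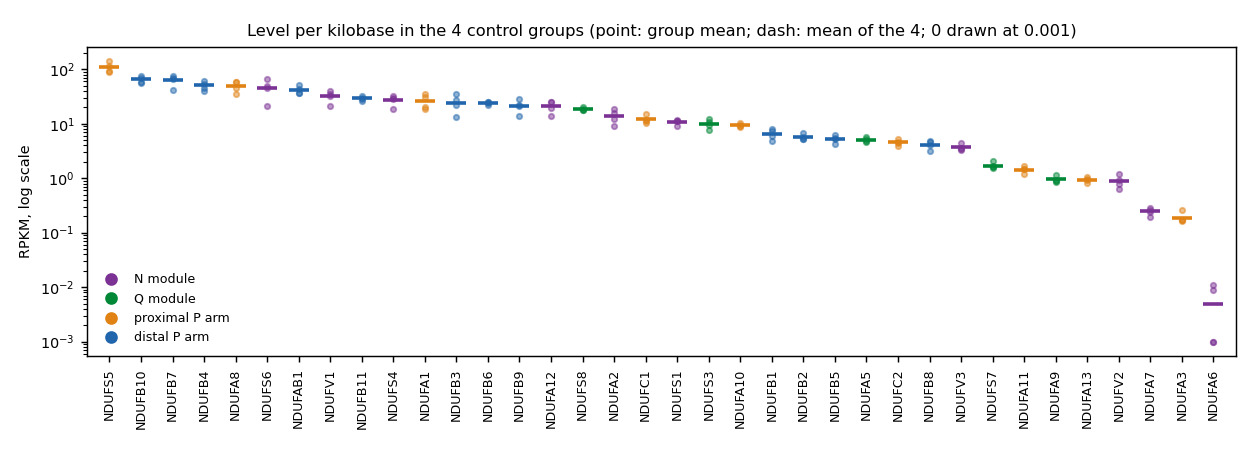
Level of each member per kilobase of exon (RPKM, log axis) in the 4 control groups, ordered by the mean. Points are group means of 3 libraries, dashes the mean of the 4 groups, colors the modules, and a value of 0 is drawn at 0.001. NDUFS5 leads at 111 RPKM, and the last 7 members lie at or below 1.45 RPKM.

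Members were called in each of the 4 experiments. With HFD, 5 of the 35 members tested were higher and 7 lower than with ND; 25.6% of all genes tested were called higher and 23.9% lower. With HA-TRIM15, 10 of 33 were lower and 0 higher, where 9.53% of all genes were lower and 12.5% higher. With shYY2, 17 of 33 were lower and 8 higher, where 38.1% of all genes were lower and 36.8% higher. With shFOXRED1, 7 of 34 were lower and 1 higher, where 19.7% of all genes were lower and 16.8% higher. Calls in either direction made up 49.5%, 22.1%, 75% and 36.6% of all genes tested in that order. NDUFA6 passed the filter on low counts in no experiment, NDUFA7 in the xenografts alone, and NDUFA3 in the xenografts and the FOXRED1 experiment. Where they were not tested, NDUFA6 had at most 2 counts in a library, NDUFA7 between 2 and 14 and NDUFA3 between 4 and 14. The members that were tested and did not pass had log2 fold changes between -0.71 and 0.38 with HFD, -0.27 and 0.15 with HA-TRIM15, -0.11 and 0.05 with shYY2, and -0.30 and 0.87 with shFOXRED1, where the outer values of -0.71 and 0.87 belong to NDUFA3. DESeq2, a different count model, called 4 lower and 5 higher, 9 and 0, 14 and 6, and 7 and 0 in the same order of experiments. Over all genes it called 3042 lower and 3753 higher, 1119 and 1528, 5419 and 5381, and 2868 and 2381. With HA-TRIM15 0 members were higher at an unadjusted p under 0.05 in edgeR. The median log2 fold change of the members tested was -0.03 with HFD, -0.14 with HA-TRIM15, -0.14 with shYY2 and -0.08 with shFOXRED1; over all genes tested it was -0.01, -0.01, -0.01 and 0.01. Counted by libraries alone, every HFD library lay above every ND library for 5 members and below for 8, against 28.2% and 28% of all genes tested, 56.2% together. Every HA-TRIM15 library lay below every EV library for 12 members and above for 0, against 17.6% and 20.1%, 37.7% together. The shYY2 libraries lay wholly above their control for 8 members and wholly below for 15, against 37.5% and 38.8%, 76.3% together, and the shFOXRED1 libraries for 1 and 10, against 22.3% and 24.4%, 46.7% together. Of the 36 members, 11 were lower in 0 experiments, 14 in 1, 7 in 2, 3 in 3 and 1 in all 4, whereas 23 were higher in 0 experiments, 12 in 1 and 1 in 2. The same was not counted over all genes, so these numbers have no background beside them.

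**Figure D2:**
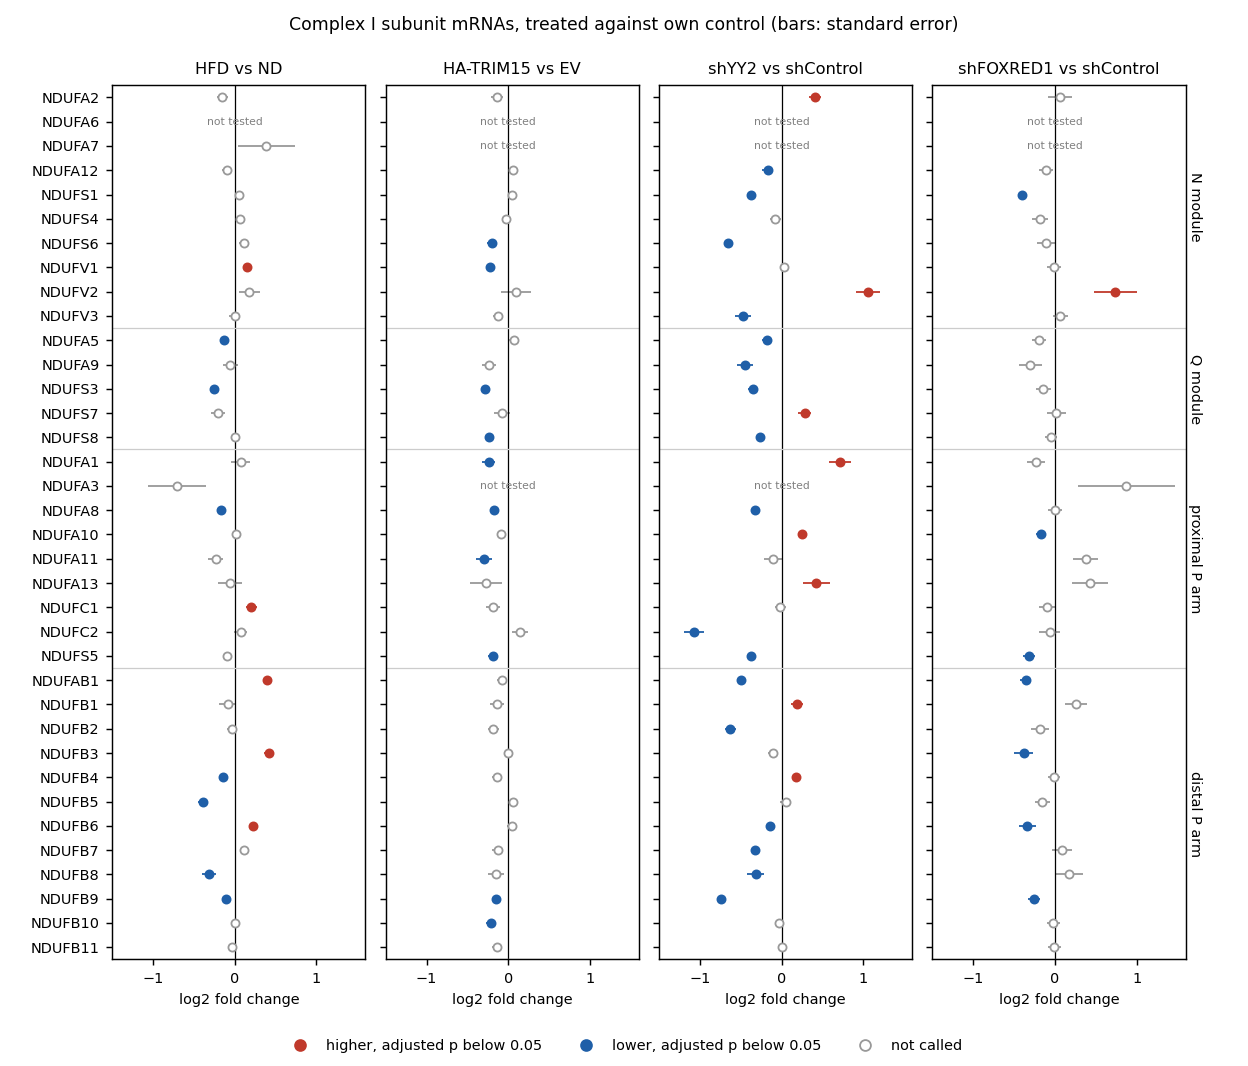
Log2 fold change of each member against its own control (x axis) in the 4 experiments, grouped by module, with standard errors as bars. Filled points passed the test (edgeR, adjusted p below 0.05). In the HA-TRIM15 panel all 10 filled points lie below 0, while the HFD panel has 5 above and 7 below.

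Summed over the 36 members, the level was between 1482 and 1599 CPM with HFD and between 1501 and 1539 CPM with ND, so that the groups overlapped. With HA-TRIM15 it was between 1471 and 1606 CPM, below the EV libraries, at 1654 to 1696 CPM. The shYY2 libraries, at 1295 to 1342 CPM, lay below their shControl, at 1457 to 1499 CPM. The shFOXRED1 libraries, at 1023 to 1126 CPM, lay below theirs, at 1165 to 1212 CPM. As a share of total counts, without the TMM factor, the members made up 0.143% to 0.154% with HFD and 0.156% to 0.159% with ND. Those groups did not overlap on this measure. The shares with shFOXRED1, 0.105% to 0.1144%, overlapped those of its shControl, 0.1136% to 0.119%. With HA-TRIM15 and shYY2 every treated share lay below every control share. In bulk samples such as these, fewer cells of a type and less RNA per cell cannot be told apart.

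**Figure D3:**
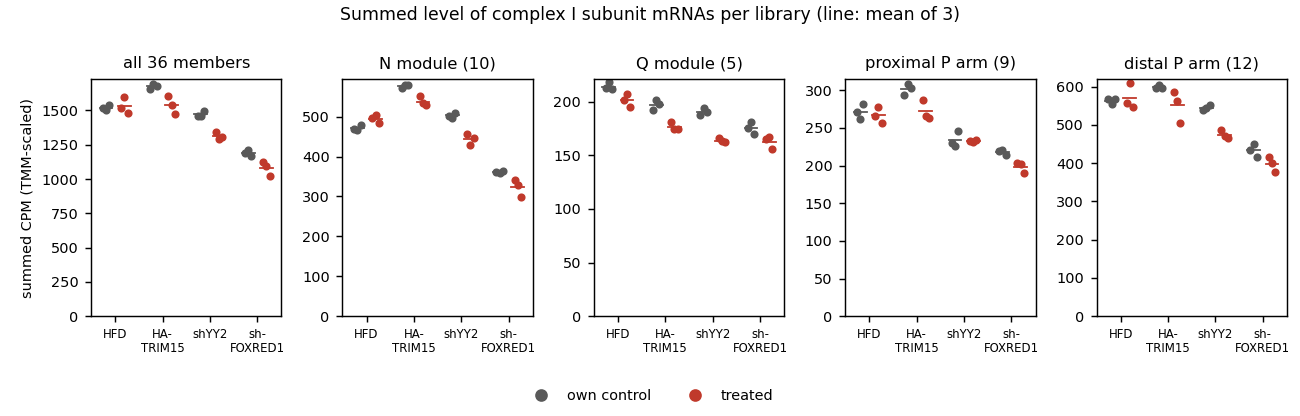
Summed CPM of all 36 members and of each module in every library (points; treated in red, own control in grey; lines are means of 3). On this TMM scale, each treated library of all members outside the xenografts lies below every library of its own control. The values are given in the text. As shares of total counts, the shFOXRED1 groups overlap and the HFD libraries all lie below the ND libraries.

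In the xenografts, the changed subunits lay on both sides of 0. Of the 12 members of the distal P arm 3 were higher and 4 lower with HFD, where 49.5% of all genes were called, with 1 higher in the N module, 2 lower in the Q module, and 1 higher and 1 lower in the proximal P arm. Those that rose most were NDUFB3 and NDUFB6, single-span membrane subunits, and NDUFAB1, the mitochondrial acyl carrier protein, which complex I holds as a subunit. NDUFB3 was counted at 32.5, 35.6 and 30.8 CPM in the HFD libraries and at 25.7, 23.3 and 24.6 CPM in the ND libraries. For NDUFAB1, the HFD libraries gave 77.3, 82.1 and 76.5 CPM and the ND libraries 59.4, 56.2 and 64.2 CPM. The level of NDUFB6 was 38.5, 41.5 and 40.1 CPM with HFD and 34.9, 35.3 and 32.6 CPM with ND. In all 3 genes the HFD libraries lay above every ND library, and the increases were 0.42 ± 0.06 (log2 fold change and SE, adjusted p = 2.27e-05) for NDUFB3, 0.40 ± 0.05 (log2 fold change and SE, adjusted p = 4.36e-06) for NDUFAB1 and 0.22 ± 0.05 (log2 fold change and SE, adjusted p = 0.00151) for NDUFB6. NDUFV1 in the N module (0.15 ± 0.04 on the log2 scale, SE, adjusted p = 0.00287) and NDUFC1 in the proximal P arm (0.20 ± 0.07 on the log2 scale, SE, adjusted p = 0.0238) were the other increases.

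The decreases with HFD were led by other subunits of the same distal arm. In the HFD libraries NDUFB5 stood at 27.1, 29.7 and 26.7 CPM, and in the ND libraries at 33.6, 37.6 and 37.5 CPM. NDUFB8 was counted at 7.32, 6.88 and 7.66 CPM in the HFD libraries and at 8.99, 9.396 and 8.98 CPM in the ND libraries. Neither gene's groups overlapped, and the changes were -0.39 ± 0.06 (log2 fold change and SE, adjusted p = 3.24e-05) for NDUFB5 and -0.32 ± 0.09 (log2 fold change and SE, adjusted p = 0.00551) for NDUFB8. NDUFS3, a core subunit of the Q module, was the other called member with a fall of this order. NDUFA3, NDUFA11 and NDUFS7, at log2 fold changes of -0.71, -0.24 and -0.20, did not pass the test. For NDUFS3, the HFD libraries gave 34.6, 34.4 and 32.8 CPM and the ND libraries 40.2, 39.1 and 41.6 CPM. The HFD libraries were the lower in every case (-0.25 ± 0.05 on the log2 scale, SE, adjusted p = 3.71e-04). NDUFA8, a twin-cysteine subunit of the proximal P arm, fell by 0.17 on the log2 scale (adjusted p = 0.00757), and NDUFA5, NDUFB4 and NDUFB9 by 0.13, 0.14 and 0.10 (adjusted p = 0.0499, 0.0462 and 0.026). The groups of NDUFA5 and NDUFB4 overlapped. Without HFD replicate 3 or without ND replicate 3, 4 members were lower. Over all genes, 3881 were higher and 3343 lower without HFD replicate 3, and 4270 and 3709 without ND replicate 3. Without TMM scaling the median of all genes lay at -0.12, which moves the calls over all genes from 4354 higher and 4061 lower to 2800 and 6415, and those of the members to 2 higher and 14 lower.

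Of the 4 subunits for which the study used antibodies, NDUFS3 is given above. NDUFB9, a distal P arm subunit that binds an acyl carrier protein, was slightly lower with HFD. The level of NDUFB9 was 79.5, 81.1 and 77.9 CPM with HFD and 85.9, 84.3 and 86.1 CPM with ND. The groups did not overlap, but the difference was -0.10 ± 0.04 (log2 fold change and SE, adjusted p = 0.026), and it was lost in DESeq2 (adjusted p = 0.0743) and without HFD replicate 1 (0.0835), HFD replicate 3 (0.143), ND replicate 1 (0.0761) or ND replicate 3 (0.0776). In the HFD libraries NDUFA9 stood at 10.4, 9.39 and 8.53 CPM, and in the ND libraries at 9.78, 10.3 and 8.93 CPM. NDUFA9 is an accessory subunit at the joint of the Q module and the membrane, and its groups overlapped (-0.06 ± 0.09 on the log2 scale, SE, adjusted p = 0.63). NDUFV2 was counted at 3.46, 3.66 and 3.57 CPM in the HFD libraries and at 2.96, 2.91 and 3.72 CPM in the ND libraries. The groups of NDUFV2 overlapped as well (0.18 ± 0.13 on the log2 scale, SE, adjusted p = 0.272).

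With HA-TRIM15 every call was a decrease, spread over the 4 modules. The N module held 2 of them among 8 tested, the Q module 2 of 5, the proximal P arm 4 of 8 and the distal P arm 2 of 12. Of the 6 core subunits 3 were lower, where 9.53% of all genes were lower. The rule for named genes picked NDUFA11, NDUFS3 and NDUFS8. For NDUFS3, the HA-TRIM15 libraries gave 38.00, 36.4 and 34.8 CPM and the EV libraries 44.99, 44.9 and 43.98 CPM. The level of NDUFS8 was 74.8, 64.5 and 69.7 CPM with HA-TRIM15 and 78.1, 85.5 and 82.04 CPM with EV. In the HA-TRIM15 libraries NDUFA11 stood at 5.602, 5.66 and 5.94 CPM, and in the EV libraries at 7.498, 6.72 and 6.93 CPM. Every HA-TRIM15 library of NDUFS3, a core subunit, NDUFS8, which carries iron-sulfur clusters on the path to ubiquinone, and NDUFA11, a membrane subunit, lay below every EV library. The changes were -0.29 ± 0.05 (log2 fold change and SE, adjusted p = 6.30e-04) for NDUFS3, -0.23 ± 0.05 (log2 fold change and SE, adjusted p = 0.00563) for NDUFS8 and -0.30 ± 0.10 (log2 fold change and SE, adjusted p = 0.0487) for NDUFA11, whose call was lost in DESeq2 (adjusted p = 0.158) and whenever any 1 library was left out (0.0756 to 0.151). NDUFV1 fell by 0.22, NDUFB10 by 0.22, NDUFS6 by 0.20, NDUFS5 by 0.19, NDUFA8 by 0.17 and NDUFA1 by 0.24 on the log2 scale (adjusted p between 0.00271 and 0.0419).

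NDUFB9 was counted at 108, 106 and 95.6 CPM in the HA-TRIM15 libraries and at 117, 114 and 115 CPM in the EV libraries. NDUFB9 was thus lower in every HA-TRIM15 library (-0.15 ± 0.04 on the log2 scale, SE, adjusted p = 0.0216), a call lost without HA-TRIM15 replicate 3 (adjusted p = 0.0788), EV replicate 1 (0.0856), EV replicate 2 (0.0574) or EV replicate 3 (0.062). For NDUFA9, the HA-TRIM15 libraries gave 10.04, 9.69 and 10.1 CPM and the EV libraries 11.9, 12.2 and 11.01 CPM. NDUFA9 did not pass the test although its groups did not overlap (-0.23 ± 0.08 on the log2 scale, SE, adjusted p = 0.061). The level of NDUFV2 was 2.68, 1.76 and 2.28 CPM with HA-TRIM15 and 2.32, 2.11 and 1.99 CPM with EV. The groups of NDUFV2 overlapped (0.09 ± 0.18 on the log2 scale, SE, adjusted p = 0.773). How many members are called depends on single libraries: 16 were lower and 1 higher without HA-TRIM15 replicate 1, 6 were lower without HA-TRIM15 replicate 2, 4 without HA-TRIM15 replicate 3, and 3 without EV replicate 2 or without EV replicate 3. NDUFS3, NDUFS8 and NDUFV1 remained lower in each of these fits. Calls over all genes moved too, to 2594 higher and 2506 lower without HA-TRIM15 replicate 1. They were 1443 and 800 without HA-TRIM15 replicate 2, and 1564 and 1020 without HA-TRIM15 replicate 3. Without EV replicate 2 they were 1295 and 891, and without EV replicate 3, 1247 and 787. Without TMM scaling the calls over all genes moved from 1973 higher and 1501 lower to 1511 and 2214, and 14 members were lower and 0 higher.

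The changes with shYY2 were larger, against a background in which 75% of all genes were called. All 5 members of the Q module were called, 4 lower and 1 higher, and the N module had 4 lower and 2 higher, the proximal P arm 3 lower and 3 higher, and the distal P arm 6 lower and 2 higher. The largest decreases were those of NDUFC2, a small membrane subunit of the proximal P arm, NDUFB9, and NDUFS6, a zinc-binding subunit of the N module. In the shYY2 libraries NDUFC2 stood at 6.45, 6.42 and 6.87 CPM, and in the shControl libraries at 11.5, 13.6 and 16.4 CPM. NDUFB9 was counted at 58.1, 55.9 and 52.3 CPM in the shYY2 libraries and at 93.3, 94.02 and 89.5 CPM in the shControl libraries. For NDUFS6, the shYY2 libraries gave 44.2, 43.1 and 49.6 CPM and the shControl libraries 70.4, 71.6 and 74.6 CPM. No shYY2 library of the 3 genes reached a shControl library, and the changes were -1.07 ± 0.12 (log2 fold change and SE, adjusted p = 9.35e-07) for NDUFC2, -0.74 ± 0.04 (log2 fold change and SE, adjusted p = 1.77e-10) for NDUFB9 and -0.66 ± 0.05 (log2 fold change and SE, adjusted p = 5.80e-09) for NDUFS6. NDUFB2 and NDUFAB1 in the distal P arm fell by 0.63 and 0.49 on the log2 scale, and NDUFV3, NDUFS1 and NDUFS5 by 0.47, 0.38 and 0.38 (adjusted p between 3.43e-09 and 0.000586).

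In the Q module, NDUFA9 and NDUFS3 fell together with NDUFS8 and NDUFA5. The level of NDUFA9 was 5.96, 6.54 and 6.71 CPM with shYY2 and 9.11, 8.505 and 8.67 CPM with shControl. In the shYY2 libraries NDUFS3 stood at 26.1, 25.9 and 29.9 CPM, and in the shControl libraries at 35.5, 35.4 and 33.6 CPM. The shYY2 libraries of NDUFA9 (-0.45 ± 0.10 on the log2 scale, SE, adjusted p = 7.30e-04) and of NDUFS3 (-0.35 ± 0.06 on the log2 scale, SE, adjusted p = 8.74e-05) all lay below the shControl libraries. NDUFS8 fell by 0.26 and NDUFA5 by 0.18 on the log2 scale, whereas NDUFS7, the core subunit with the last iron-sulfur cluster before ubiquinone, rose by 0.28 (adjusted p = 0.00526).

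The increases with shYY2 were led by NDUFV2, NDUFA13 and NDUFA1. NDUFV2 was counted at 5.904, 5.34 and 4.598 CPM in the shYY2 libraries and at 2.36, 2.42 and 2.77 CPM in the shControl libraries. For NDUFA1, the shYY2 libraries gave 23.4, 23.1 and 24.5 CPM and the shControl libraries 14.5, 10.2 and 18.1 CPM. The level of NDUFA13 was 2.98, 3.899 and 3.57 CPM with shYY2 and 2.91, 2.13 and 2.72 CPM with shControl. NDUFV2 was the only core subunit other than NDUFS7 to rise (1.06 ± 0.15 on the log2 scale, SE, adjusted p = 7.88e-06), from the low level described above. NDUFA1, a small membrane subunit encoded on the X chromosome, rose by 0.72 ± 0.13 (log2 fold change and SE, adjusted p = 1.15e-04). NDUFA13, also known as GRIM-19, rose by 0.42 ± 0.17 (log2 fold change and SE, adjusted p = 0.0313), which was lost in DESeq2 (adjusted p = 0.108), without shYY2 replicate 2 (0.118) or replicate 3 (0.073), and without shControl replicate 2 (0.137). NDUFA2, NDUFA10, NDUFB1 and NDUFB4 were the other increases, at log2 fold changes between 0.18 and 0.41. NDUFS4, NDUFV1, NDUFB3, NDUFB5, NDUFB10, NDUFB11, NDUFA11 and NDUFC1 did not pass the test.

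**Figure D4:**
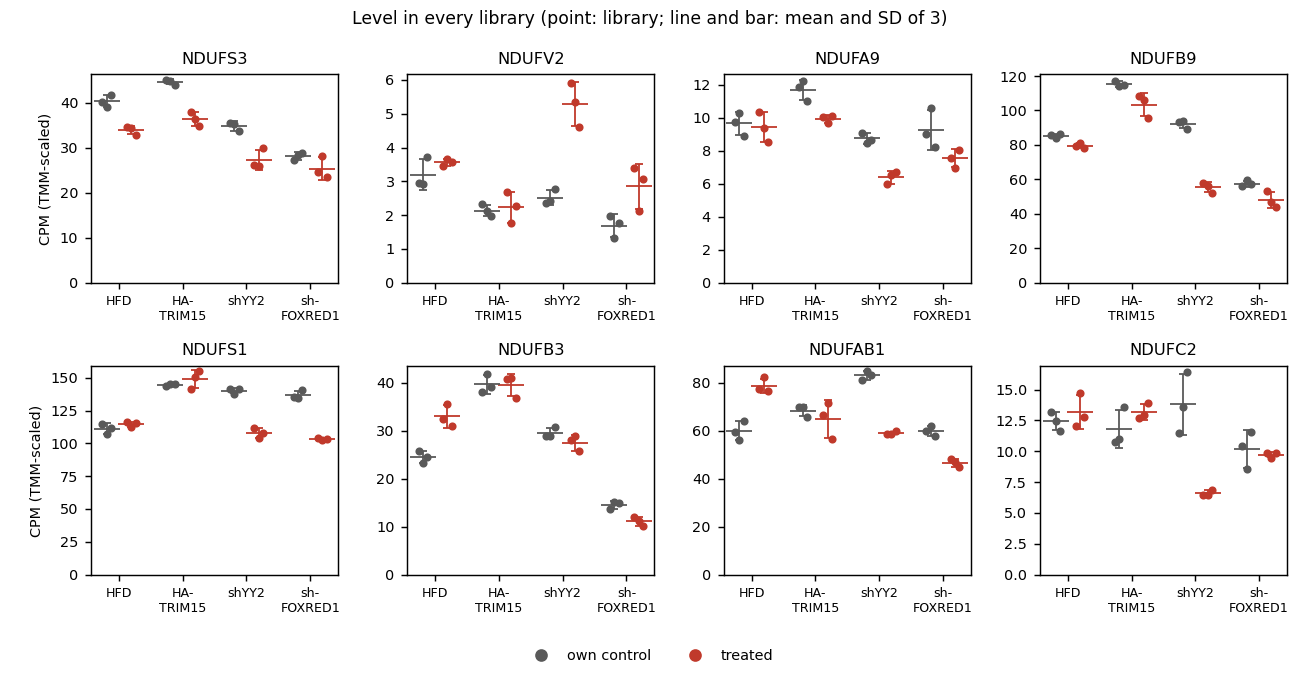
Level of 8 members in every library (CPM; points are libraries, lines and bars mean and SD of 3; treated in red, own control in grey). NDUFB9 lies below its control in all 4 experiments, and NDUFAB1 lies above it with HFD (78.6 against 59.9 CPM) and below it with shFOXRED1 (46.5 against 59.7 CPM).

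Since YY2 is a zinc-finger protein related to YY1, which binds DNA at the letters CCATNTT, the RefSeq promoters of the members (GRCh38.p14, from 250 bases before to 50 bases after the annotated start) were searched for these letters on both strands. A promoter is listed for 32 members; NDUFB5, NDUFB9, NDUFC2 and NDUFS5 have none in the table. The letters occur in the promoters of 16 of the 32 members, or 50%, against 19.4% of the 11072 genes tested in the YY2 experiment that have a promoter, and after the start in 12, or 37.5%, against 8.26%. Of the 29 members that have a promoter and were themselves tested there, 13, or 44.8%, hold the letters, and 9, or 31%, hold them after the start. Most of these matches lie close to the start, on the other strand as AANATGG, and the letters ATG in it are also those of a start codon. In 11 of the 12 members the match after the start holds the whole start codon annotated in GENCODE 29, and in all 12 it lies in an exon. Shown here for members that fell with shYY2 (NDUFS1, NDUFS3, NDUFS6 and NDUFA9), that rose (NDUFS7) and that did not pass the test (NDUFS4) are 30 bases around the match, 5′ to 3′ on the gene's strand, with the match in capitals.
NDUFS1: agccgaggccgCCATATTgaataagcgacc
NDUFS3: tgcatctgagtAACATGGcggcggcggcgg
NDUFS6: gccagcggcgcAAAATGGcggcggcgatga
NDUFA9: gattgtgggaaAAGATGGcggctgccgcac
NDUFS7: aggccgaggccAAGATGGcggtgctgtcag
NDUFS4: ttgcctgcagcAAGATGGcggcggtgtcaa
The windows are chr2:206159409-206159438 (minus strand) for NDUFS1, chr11:47579078-47579107 (plus strand) for NDUFS3, chr5:1801404-1801433 (plus strand) for NDUFS6, chr12:4649113-4649142 (plus strand) for NDUFA9, chr19:1383913-1383942 (plus strand) for NDUFS7 and chr5:53560649-53560678 (plus strand) for NDUFS4 in GRCh38.p14. The match of NDUFS1 lies in its 5′ untranslated region, whereas those of the other 5 run across the start codon.

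A match is a description of the letters and not a binding site. With shYY2, 6 of the 9 tested members with a match after the start were lower and 2 higher, and of the 16 without a match 6 were lower and 5 higher; all 16 were tested. The median log2 fold changes were -0.32 and -0.06, and it was -0.56 over the 4 members with no promoter in the table, 3 of them lower. The 4 members with a match only before the start had 2 lower and 1 higher, with a median of -0.09. Over all genes tested with shYY2, 38.1% were lower and 36.8% higher. The share among all genes with a match was not counted. With HA-TRIM15, 2 of 9 with a match after the start and 4 of 16 without a match were lower (medians -0.08 and -0.14). With HFD, the members with a match after the start had 2 lower of 11 tested as their calls, and those without a match 2 lower and 5 higher of 16. With shFOXRED1, 1 of 10 with a match after the start was lower and 1 higher, and 4 of 16 without a match were lower (medians -0.11 and -0.01). Over all genes, 9.53% were lower with HA-TRIM15, 23.9% lower and 25.6% higher with HFD, and 19.7% lower and 16.8% higher with shFOXRED1. These differences were not tested. Of the other motifs searched on both strands, the letters of the NRF1 motif occur in a promoter of 18.8% of the 32 members against 6.98% of all 27305 genes with a promoter, those of ETS factors (CCGGAAG) of 15.6% against 12.2%, and those of NFY (CCAAT) of 25% against 39.7%.

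With shFOXRED1 the changes were fewer, where 36.6% of all genes were called. The distal P arm had 4 members lower, the proximal P arm 2, the N module 1 lower and 1 higher, and the Q module 0 of 5, where edgeR gave 2 members lower at an unadjusted p under 0.05 and DESeq2 called 0. In the shFOXRED1 libraries NDUFS1 stood at 104, 103 and 104 CPM, and in the shControl libraries at 135, 135 and 140.3 CPM. NDUFB3 was counted at 11.98, 11.2 and 10.1 CPM in the shFOXRED1 libraries and at 13.6, 15.2 and 14.8 CPM in the shControl libraries. For NDUFAB1, the shFOXRED1 libraries gave 47.98, 47.00 and 44.7 CPM and the shControl libraries 59.8, 61.8 and 57.6 CPM. The shFOXRED1 libraries of NDUFS1, the largest core subunit, of NDUFB3 and of NDUFAB1 lay below every control library, by -0.40 ± 0.05 (log2 fold change and SE, adjusted p = 1.85e-05) for NDUFS1, -0.38 ± 0.11 (log2 fold change and SE, adjusted p = 0.0135) for NDUFB3 and -0.36 ± 0.07 (log2 fold change and SE, adjusted p = 4.46e-04) for NDUFAB1. NDUFB6 fell by 0.34, NDUFS5 by 0.32 and NDUFA10, a subunit with the fold of a nucleoside kinase, by 0.18 on the log2 scale (adjusted p = 0.0162, 0.00307 and 0.0284). The call of NDUFA10 was lost without shFOXRED1 replicate 1 or 2 and without shControl replicate 1 or 2. It was also lost without TMM scaling or without the filter on counts.

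The level of NDUFB9 was 53.1, 46.8 and 43.9 CPM with shFOXRED1 and 55.95, 59.4 and 57.1 CPM with shControl. The treated libraries of NDUFB9 were all lower (-0.26 ± 0.08 on the log2 scale, SE, adjusted p = 0.0125), a call lost without shFOXRED1 replicate 2 (adjusted p = 0.0554) or shControl replicate 2 (0.0649). In the shFOXRED1 libraries NDUFV2 stood at 3.38, 2.11 and 3.08 CPM, and in the shControl libraries at 1.98, 1.33 and 1.77 CPM. NDUFV2 was the only increase (0.74 ± 0.27 on the log2 scale, SE, adjusted p = 0.0385); the call was lost in DESeq2 (adjusted p = 0.0675), without shFOXRED1 replicate 1 (0.163) or replicate 3 (0.061), and without shControl replicate 2 (0.148) or replicate 3 (0.0781). NDUFS3 was counted at 24.6, 28.2 and 23.4 CPM in the shFOXRED1 libraries and at 27.2, 28.3 and 28.8 CPM in the shControl libraries. For NDUFA9, the shFOXRED1 libraries gave 7.598, 6.98 and 8.07 CPM and the shControl libraries 9.02, 10.6 and 8.22 CPM. Neither NDUFS3 (-0.14 ± 0.09 on the log2 scale, SE, adjusted p = 0.233) nor NDUFA9 (-0.30 ± 0.14 on the log2 scale, SE, adjusted p = 0.103) passed the test. With the replicate number as a block, 2 members were higher, NDUFV2 and NDUFA11, and 8 lower, with NDUFA5 added. Without shFOXRED1 replicate 2, 4 members were lower, and without shControl replicate 2, 3. Without shFOXRED1 replicate 3, the library that stood apart, 3 members were higher and 9 lower: NDUFA11, NDUFA13 and NDUFB7 were then higher, NDUFA5 and NDUFB5 lower, and NDUFV2 was not called. Over all genes, 2080 were higher and 2549 lower without shFOXRED1 replicate 2, and 2093 and 2585 without shControl replicate 2. Without shFOXRED1 replicate 3 these were 3215 and 3638. Without TMM scaling the calls over all genes moved from 2650 higher and 3102 lower to 3325 and 2476, and 2 members were higher and 6 lower.

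NDUFB9 was the 1 member lower in all 4 experiments, by 0.10 with HFD, 0.15 with HA-TRIM15, 0.74 with shYY2 and 0.26 with shFOXRED1 on the log2 scale. How many of all genes were lower in all 4 was not counted. Outside the YY2 experiment each call of NDUFB9 was lost without one or more single libraries, as given above. The exons of NDUFB9 overlap those of TATDN1 and MTSS1 on the opposite strand, and 3 pseudogenes are named for it. NDUFS3 and NDUFA8 were lower with HFD, HA-TRIM15 and shYY2, and NDUFS5 with HA-TRIM15, shYY2 and shFOXRED1. Of the 10 members lower with HA-TRIM15, 6, or 60%, were also among the 17 lower with shYY2, 35.3% of those: NDUFA8, NDUFB9, NDUFS3, NDUFS5, NDUFS6 and NDUFS8. Over all genes, 48.4% of those lower with HA-TRIM15 were lower with shYY2, and 51.5% of the members tested were. Of the 7 members lower with HFD, 5, or 71.4%, were lower with shYY2 (33.2% over all genes), and of the 7 lower with shFOXRED1 also 5 (61.1% over all genes). NDUFA1 went down with HA-TRIM15 and up with shYY2, at log2 fold changes of -0.24 and 0.72.

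Of the 5 members higher with HFD, 3, or 60%, were among the 7 lower with shFOXRED1, 42.9% of those: NDUFAB1, NDUFB3 and NDUFB6, all of the distal P arm. Over all genes, 36.6% of those higher with HFD were lower with shFOXRED1. With shFOXRED1, the calls of NDUFB3 and NDUFB6 were lost without shControl replicate 2, and that of NDUFB6 also without shFOXRED1 replicate 2. Their log2 fold changes were 0.40, 0.42 and 0.22 with HFD and -0.36, -0.38 and -0.34 with shFOXRED1. NDUFAB1 and NDUFB6 were also lower with shYY2. The call of NDUFB6 with shYY2, at a log2 fold change of -0.14, was lost in DESeq2 and without TMM scaling. It was also lost without shYY2 replicate 2 or 3 and without shControl replicate 1. The difference between the HFD and the shFOXRED1 effect was not tested. FOXRED1 itself was at 29.2 ± 0.297 CPM with HFD and 30.2 ± 2.01 CPM with ND (SD, n = 3; edgeR, adjusted p = 0.414).

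Tests of the difference between effects were made for 3 pairs of experiments, each over 12 libraries with the control of each experiment. The shYY2 and the shFOXRED1 effect differed in 12 of 34 members, where 54.4% of all genes differed; 10 of them were lower with shYY2 relative to shFOXRED1 (28% of all genes) and 2, NDUFA1 and NDUFA10, higher (26.4%). The largest were -1.01 ± 0.18 (SE, adjusted p = 8.01e-05) for NDUFC2, 0.95 ± 0.19 (SE, adjusted p = 1.92e-04) for NDUFA1 and -0.56 ± 0.12 (SE, adjusted p = 5.76e-04) for NDUFS6. NDUFS1, which fell in both, is not among the 12. Between the HA-TRIM15 and the shYY2 effect, 20 of 33 members differed, 10 with the HA-TRIM15 effect the higher and 10 with it the lower, where 64.4% of all genes did, 34.1% and 30.3%. The highest difference was 1.21 ± 0.17 (SE, adjusted p = 1.62e-06) for NDUFC2, and the lowest were -0.97 ± 0.23 (SE, adjusted p = 9.74e-04) for NDUFV2 and -0.96 ± 0.17 (SE, adjusted p = 3.26e-05) for NDUFA1. The HFD and the HA-TRIM15 effect differed in 10 of 35 members against 35.2% of all genes, 9 of them higher with HFD relative to HA-TRIM15 (21.5% of all genes) and 1, NDUFB5, lower (13.6%). Among the 9, NDUFAB1 differed by 0.50 ± 0.09 (SE, adjusted p = 1.39e-04), NDUFB3 by 0.46 ± 0.09 (SE, adjusted p = 2.66e-04) and NDUFV1 by 0.40 ± 0.06 (SE, adjusted p = 2.03e-05).

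**Figure D5:**
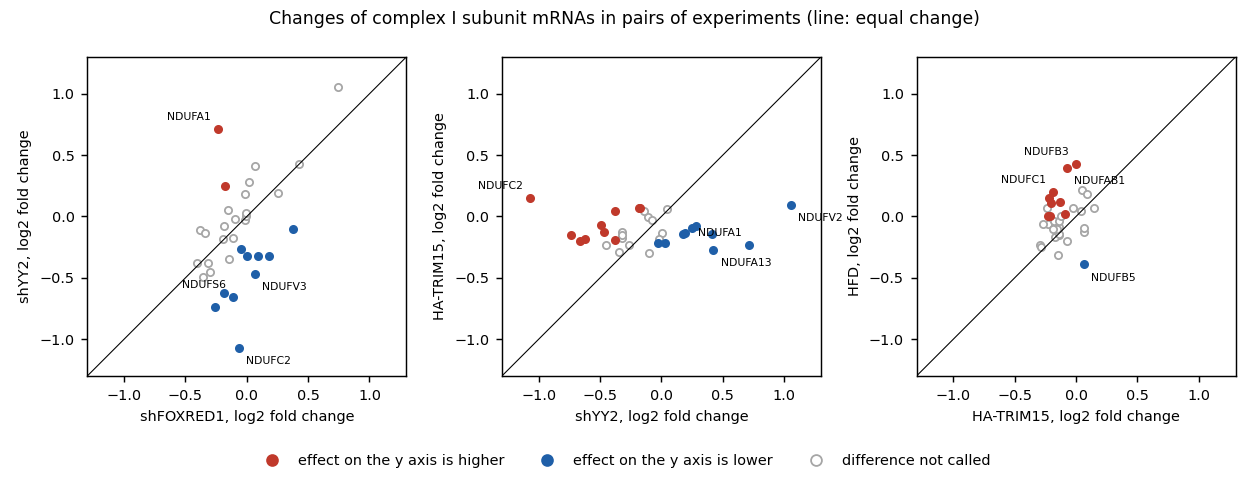
Log2 fold changes of the members in 2 experiments at a time (x and y axes), with the line of equal change. Filled points differ between the effects (edgeR, adjusted p below 0.05), 12, 20 and 10 members from left to right, and the 4 with the largest difference are named.

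The assembly factors, which join the subunits but are not part of the finished enzyme, were set beside the members. Of 19, 2 were higher and 4 lower with HFD, 2 and 16 with shYY2, and 4 lower with HA-TRIM15 and 3 lower with shFOXRED1 were the only calls there, 1 of the 3 being FOXRED1, the target of the hairpin. Over all genes, 25.6% were higher and 23.9% lower with HFD, 36.8% and 38.1% with shYY2, and 9.53% lower with HA-TRIM15 and 19.7% with shFOXRED1. The medians were -0.01 with HFD, -0.04 with HA-TRIM15, -0.57 with shYY2 and -0.10 with shFOXRED1. With shYY2 the largest decreases were those of TMEM70 (-1.51 ± 0.08, SE, edgeR, adjusted p = 9.91e-11) and NDUFAF4 (-1.49 ± 0.09, adjusted p = 7.24e-10), while ECSIT (0.86 ± 0.06, adjusted p = 2.32e-09) and DMAC2 (0.19 ± 0.06, adjusted p = 0.00869) rose. FOXRED1 is one of the 16 and fell there by 0.89 on the log2 scale (adjusted p = 3.31e-09), and with HA-TRIM15 it fell by 0.24 (adjusted p = 0.00509).

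Of the other complexes of oxidative phosphorylation, 17 of the 39 genes examined were called with HA-TRIM15, all of them lower, namely 2 of 4 in complex II, 3 of 9 in complex III, 6 of 11 in complex IV and 6 of 15 in the ATP synthase, where 9.53% of all genes were lower. With shFOXRED1 20 of the 39 were called, again all lower, with 2, 5, 5 and 8 in the same order, where 19.7% of all genes were lower. With HFD 13 of 39 were higher and 3 lower, where 25.6% and 23.9% of all genes were, and 7 of the 13 were in the ATP synthase; ATP5MC1, which encodes part of its rotor ring, rose by 0.48 (edgeR, adjusted p = 2.02e-06), and SDHD, a membrane anchor of complex II, by 0.49 (adjusted p = 4.08e-07). With shYY2 10 were higher and 19 lower, where 36.8% and 38.1% of all genes were, and the ATP synthase had 3 higher and 11 lower, with ATP5MC1 at -0.70 (adjusted p = 2.66e-08) and ATP5MC2 at 0.58 (adjusted p = 5.13e-10).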

How the data were processed

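RNA-seq of 24 libraries was analysed. Polyadenylated RNA had been read in pairs on a DNBSEQ instrument. Per gene, raw read counts were deposited by the authors as whole numbers that had not been normalized, in 4 tables with 6 value columns and 61860 Ensembl identifiers each; 99.8% could be named. The submitters' processing notes name hg38 and mm10 without a role. The aligner, the counter and the treatment of mouse reads are not given in the sources used here. The labels name a directional library kit and the methods of the study one that is not, so the use of strand is not settled. The table of the HA-TRIM15 experiment has 10 header cells, 3 of them empty, and its columns were taken by number.

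Each experiment was fitted alone in R 4.3.3 with edgeR 4.0.16 (filterByExpr with a minimum count of 10 and a minimum total of 15, TMM, glmQLFit, glmQLFTest), and p-values were adjusted after Benjamini and Hochberg over every gene in the fit, with a threshold of 0.05. Adjusted p-values in the text are from edgeR unless DESeq2 1.42.0 is named. Differences between effects were fitted over 12 libraries. Counts per kilobase used GENCODE 29, and promoters are RefSeq's (GRCh38.p14). Named with the value of every library were, in each experiment, the 3 members with the largest change in each direction that passed, did not overlap and had a mean of at least 1 CPM, and NDUFS3, NDUFV2, NDUFA9 and NDUFB9. The procedure was run on counts simulated from the spread of these same data. A required recovery was set only for changes larger than most of those called here. The members, lists and tests were chosen with earlier results of these data known. Alternatives were other scalings and filters, a replicate block, DESeq2's Wald test, a fold change of at least 1.2 and leaving out each library.

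Replicate numbers were checked by the correlation of same-numbered libraries' deviations from the group means. Over all genes it was at most 0.097 in every experiment. Over the 9725 genes of at least 10 CPM in the FOXRED1 experiment it was 0.211, 0.125 and 0.410, and there alone every number passed the limit of 0.1. Libraries of different numbers also passed it there, treated 2 with control 1 at 0.205 and treated 1 with control 2 at 0.148, and the labels give no reason for a pairing, so that the numbers are not known to pair these libraries.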

Additional observations from a re-analysis of the deposited data

How the results depend on the processing

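With no TMM factor, 2 members were higher and 14 lower with HFD and 2 were higher with shFOXRED1. At a fold change of at least 1.2, 2 members were higher and 2 lower with HFD, 2 were lower with HA-TRIM15 and 5 were higher with shYY2. The same was not counted over all genes at that fold change, so these numbers have no background beside them. DESeq2's Wald test gave 4 lower with HFD and 0 higher with shFOXRED1, where edgeR had 2 higher at an unadjusted p under 0.05. Over all genes it called 3042 lower with HFD and 2381 higher with shFOXRED1. The replicate block gave 2 higher with shFOXRED1, where 3157 of all genes were higher. It otherwise moved no count of members by over 1.5 times. It lost NDUFA5 and NDUFB4 with HFD and NDUFA11 with HA-TRIM15. Leaving out each library in turn gave 4 to 6 higher and 4 to 9 lower with HFD, 0 to 1 higher and 3 to 16 lower with HA-TRIM15, 6 to 8 higher and 15 to 17 lower with shYY2, and 0 to 3 higher and 3 to 9 lower with shFOXRED1. Over all genes, these fits gave 3881 to 4270 higher and 3343 to 3709 lower with HFD. With HA-TRIM15 they gave 1247 to 2594 higher and 787 to 2506 lower. With shYY2 they gave 5714 to 5876 higher and 5917 to 6103 lower, and with shFOXRED1 2080 to 3215 higher and 2549 to 3638 lower. The members whose effects differed numbered 8 to 15 between shYY2 and shFOXRED1, 16 to 19 between HA-TRIM15 and shYY2, and 7 to 15 between HFD and HA-TRIM15. For these differences the range over all genes was not counted. Leaving out libraries, the log2 fold change of NDUFA9 with HFD ran from -0.129 to 0.026 and turned sign without HFD replicate 3, and that of NDUFV2 with HA-TRIM15 ran from -0.076 to 0.231 and turned sign without HA-TRIM15 replicate 1. Neither had passed the test. The cause of these shifts was not tested. Most called changes of the members are under 1.5-fold, and members at a few CPM or less are limited by depth.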

Other observations

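Regulators of mitochondrial biogenesis, 16 genes in all, were set beside the subunits. With HFD 7 were higher and 3 lower, with HA-TRIM15 5 and 2, with shYY2 3 and 11, and with shFOXRED1 3 and 3. Over all genes, 25.6% were higher and 23.9% lower with HFD, 12.5% and 9.53% with HA-TRIM15, 36.8% and 38.1% with shYY2, and 16.8% and 19.7% with shFOXRED1. PPARGC1A, a coactivator of mitochondrial gene programs, fell with HFD by 0.84 on the log2 scale (edgeR, adjusted p = 3.74e-06) and rose by 0.44 with shYY2 (adjusted p = 0.00142) and by 0.39 with shFOXRED1 (adjusted p = 0.00273). With shYY2, PPRC1, a coactivator related to it, fell by 1.48 (adjusted p = 3.19e-14), GABPB1, a subunit of an ETS-type factor that acts on respiratory chain genes, fell by 1.05 (adjusted p = 5.02e-10), and PPARA rose by 1.72 (adjusted p = 7.05e-16).

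The control groups of the 4 experiments also differed in level for some members. NDUFS6 ranged from 21.6 to 66.1 RPKM between control groups, a ratio of 3.06, and NDUFB3 from 13.2 to 35.9 RPKM, a ratio of 2.72. NDUFA10 (1.15) and NDUFS8 (1.15) had the smallest ratios. These groups come from different experiments and were not tested against each other.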
